A study of Caenorhabditis elegans with 2 samples.

Results

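Among the places where eGFP-tagged SKN-1 was recovered from third-stage (L3) larvae of Caenorhabditis elegans, 314 were autosomal peaks that lay close to the 5′ end of a single gene. A peak was a member when its summit, the base of highest signal, lay in the promoter window of exactly 1 protein-coding gene and under 250 bp from the nearest annotated 5′ end of that gene. The window of a gene reached 1000 bp upstream and 200 bp downstream from each 5′ end annotated for it. The 314 members came from 1778 peaks in all, of which 1430 were autosomal, so they made up 22% of the autosomal peaks (Wilson 95% interval 19.9 to 24.2%). The 1778 peaks had themselves passed a reproducibility threshold that was derived from the pooled and replicate lists. Among them, no peak height, motif or replicate value entered the choice of members.

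The worms were whole L3 larvae of mixed sex from strain OP342, which carries the mutation unc-119(ed3) III and the transgene insertion wgIs342, through which SKN-1 is made as an eGFP fusion. The labels give no age and do not say in which cells the fusion is made, and both samples carry the same alleles. Chromatin immunoprecipitation and sequencing was done on 2 biological replicates, and there was no second genotype, treatment or stage, so every comparison is between kinds of peak or between a peak and its surroundings. Whole animals were used, so a low summit in many cells and a high summit in few cells cannot be told apart.

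SKN-1 is the worm relative of the mammalian Nrf transcription factors. It has a basic region like that of bZIP proteins but no leucine zipper, and it binds DNA as a monomer at a short site that joins a bZIP-type recognition element to an AT-rich stretch. In larvae and adults it is best known for switching on detoxification enzymes, glutathione synthesis and proteasome subunits, with the intestine as a main site of action, and the adaptor WDR-23 holds it in check by targeting it for degradation. Many worm messenger RNAs are trans-spliced, so that an annotated 5′ end can be the acceptor site of a spliced leader and not the base where transcription starts.

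The sequences below are shown because they carry the match to the SKN-1 consensus, or its absence, at 7 of the 12 strongest members and at 6 further members of the described gene groups. The consensus was A or T, A or T, then TATCAT or TGTCAT, searched on both strands, and it holds the 6-base core TATCAT or TGTCAT. Each line reads 5′ to 3′ on the strand of the gene, with the bases of a consensus match in capitals. The letters are those of WBcel235, the assembly that is also called ce11. The windows, each the summit with 50 bases on either side, were chrII:10563519-10563619 for cdc-48.1 (minus strand), chrIII:8552292-8552392 for C02D5.4 (plus strand), chrV:11982456-11982556 for rpt-1 (minus strand) and chrIII:12370179-12370279 for rpt-6 (plus strand). For eelo-2 the window was chrIV:17249847-17249947 (plus strand), for gst-7 chrII:4881907-4882007 (plus strand), for gst-1 chrIII:9059067-9059167 (plus strand) and for gst-16 chrII:13624474-13624574 (minus strand). For ufd-3 it was chrII:9940580-9940680 (plus strand) and for rsp-6 chrIV:7791331-7791431 (minus strand). Where more than 30 bases of a window were untranslated, 30 bases around the match are given, which were chrII:4044504-4044533 for rpn-11, chrIV:4788485-4788514 for nhr-104 and chrV:2259856-2259885 for nhr-182 (all minus strand).
cdc-48.1: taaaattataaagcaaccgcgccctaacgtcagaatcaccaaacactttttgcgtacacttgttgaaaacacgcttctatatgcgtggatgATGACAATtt
C02D5.4: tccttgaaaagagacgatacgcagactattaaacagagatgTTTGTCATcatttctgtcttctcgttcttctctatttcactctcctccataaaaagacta
rpn-11: cgtaccccgcaATTGTCATcctcacaattt
rpt-1: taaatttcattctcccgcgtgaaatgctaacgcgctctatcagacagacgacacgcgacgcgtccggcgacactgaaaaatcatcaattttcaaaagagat
rpt-6: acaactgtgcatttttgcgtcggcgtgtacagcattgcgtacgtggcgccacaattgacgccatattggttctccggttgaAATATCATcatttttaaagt
eelo-2: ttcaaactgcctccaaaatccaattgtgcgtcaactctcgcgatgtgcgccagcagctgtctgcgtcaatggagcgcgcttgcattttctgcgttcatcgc
gst-7: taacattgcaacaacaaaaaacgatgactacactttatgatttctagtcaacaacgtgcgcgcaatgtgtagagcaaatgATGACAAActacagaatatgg
nhr-104: aaaacattggaAATATCATcatttggtcga
gst-1: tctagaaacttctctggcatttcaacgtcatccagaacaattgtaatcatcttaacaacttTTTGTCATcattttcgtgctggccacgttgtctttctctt
gst-16: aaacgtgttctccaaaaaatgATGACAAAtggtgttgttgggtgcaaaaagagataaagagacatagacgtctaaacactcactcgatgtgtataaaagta
ufd-3: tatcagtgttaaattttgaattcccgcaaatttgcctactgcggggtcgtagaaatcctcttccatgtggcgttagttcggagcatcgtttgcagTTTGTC
rsp-6: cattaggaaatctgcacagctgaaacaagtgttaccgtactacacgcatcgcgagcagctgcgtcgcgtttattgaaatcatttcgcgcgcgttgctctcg
nhr-182: gttctatgcctTTTGTCATcatttatgatg

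In the lines of cdc-48.1, gst-7 and gst-16 the match lies on the strand opposite to the gene, so the capitals there read as the reverse complement, ending in CAAT or CAAA. The match of ufd-3 runs past the end of its window, so only its first letters are shown. The lines of rpt-1, eelo-2 and rsp-6 hold no match. At C02D5.4, rpt-6, nhr-104, gst-1 and nhr-182 the match is followed by CA on its own strand, and so it is at cdc-48.1, gst-7 and gst-16, where this reads as TG before the capitals. At rpn-11 it is followed by CC. The strong members wdr-23, pbs-4, E01A2.1, E01B7.2 and cdt-1 are described without their sequences.

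The 314 members marked 309 genes. Of the 17242 autosomal protein-coding genes, 1.79% had a member peak, and of the 14469 whose 5′ ends leave any single-gene sequence under 250 bp, 2.14% had one. The sequence that could hold a member came to 7.84 Mb, which gives 40.04 members per Mb. Single-gene promoter sequence at 250 bp or more from the 5′ end held 293 peaks in 12 Mb, or 24.5 per Mb, and sequence in the promoters of several genes held 378 peaks in 2.52 Mb, or 149.7 per Mb. Autosomal sequence outside all promoter windows held 445 peaks at 7.39 per Mb. Members were therefore denser than far single-gene peaks and less dense than shared promoter peaks. These densities are descriptions, and no test was made of them.

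Members lay on all 5 autosomes. There were 69 on chromosome I, 69 on II, 52 on III, 61 on IV and 63 on V. As a share of the peaks of the same chromosome they ran between 16.8% on III and 25.6% on V. The gene was on the plus strand for 169 members and on the minus strand for 145.

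Member summits were mostly upstream of the 5′ end. In distances counted along the gene, where a negative value is upstream, the median was -118.5 bp, with quartiles of -178.25 and -44.5 bp, and the whole span was -249 to 221 bp. Upstream summits numbered 280, against 34 at or downstream of the 5′ end. The upstream summits were spread over the allowed range. There were 63 at -249 to -200 bp, 51 at -199 to -150 bp, 70 at -149 to -100 bp, 44 at -99 to -50 bp and 53 at -49 to 0 bp, with 33 further downstream. The limit of 250 bp cuts through a continuous spread. Just inside it lay utp-20 at -249 bp with signal value 32.2 and dnj-9 at -247 bp with 65.3, and just outside it lay ubc-9 at -250 bp with 27.7 and dld-1 at -252 bp with 73.3.

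**Figure D1:**
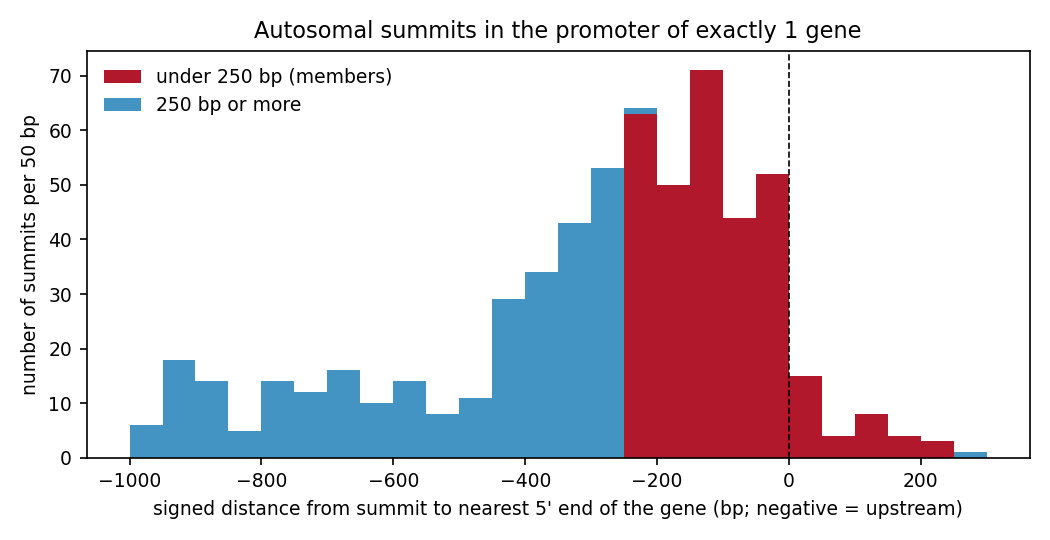
Number of autosomal single-gene promoter summits per 50 bp (vertical axis) against the signed distance in bp from the summit to the nearest 5′ end of the gene (horizontal axis, negative upstream), with members in red and far peaks in blue. The counts pass across the 250 bp limit without a gap, and the 34 member summits at or right of 0 are few beside the 280 to its left.

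Most summits were intergenic in members and in far peaks alike. Of the 314 members, 225 summits (71.7%, Wilson 95% interval 66.4 to 76.4%) were intergenic, 49 (15.6%) were intronic, 30 (9.55%) were in a 5′ UTR, 6 were in a 3′ UTR and 4 were in coding sequence. Among the 293 far peaks, 228 summits (77.8%) were intergenic, 50 were intronic and 4 were in a 5′ UTR. Another gene on the same strand ended within 500 bp upstream of the 5′ end, or spanned it, for 94 members (29.9%). For 19 members the 5′ end lay inside another gene on either strand, and those with that gene on the same strand are among the 94. A tRNA, snoRNA or snRNA gene within 200 bp of the summit was found for 14 members (4.46%, 2.67 to 7.34%), against 163 of all 1778 peaks (9.17%).

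The 5′ ends of the member genes were of both kinds found in the worm, those with and those without the mark of a spliced-leader acceptor. The bases AG, which end an acceptor site, stood directly before the 5′ end in 102 members (32.5%, Wilson 95% interval 27.5 to 37.8%), against 162 of 293 far peaks (55.3%, 49.6 to 60.9%) and 26.5% of all 25199 autosomal 5′ ends. The members and far peaks differ in distance by rule, and no test was made of this contrast. Within the members, the median distance was -169.5 bp for the 102 with AG and -78 bp for the 212 without. The consensus was within 50 bp of the summit in 12 of the 102 with AG (11.8%, 6.86 to 19.4%) and in 45 of the 212 without (21.2%, 16.3 to 27.2%). The intervals of these shares overlap, which does not decide whether the shares differ, and no test was made of them.

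The annotation of the member genes is given as a description, with no test. More than 1 annotated 5′ end was listed for 150 of the 309 genes (48.5%), against 4551 of 17242 genes (26.4%). The rule uses annotated 5′ ends, so a gene with more of them had more sequence that could hold a member, and that contrast is partly built in. Members whose 5′ end had no annotated 5′ UTR numbered 21 (6.69%), against 30.5% of all autosomal 5′ ends. A gene known only by its sequence name was hit by 93 members (29.6%), against 44.5% of all autosomal genes. G and C made up 43.7 ± 8.28% of the bases within 50 bp of member summits (SD over 314 peaks), 45.5% at far summits, 45.2% at shared promoter summits, and 34.3 ± 8.42% of windows of that length placed 118 bp upstream of the 25188 autosomal 5′ ends that allow one.

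The strength of the members was modest beside the top of the list. The deposited signal value, a score on the authors' own scale, had a median of 36.8 over the members (quartiles 30.6 and 51.7) and spanned 27 to 493. It had a median of 37.4 and a highest value of 209 over far peaks, 41.7 and 352 over shared promoter peaks, and 36.2 and 1289 outside promoters. Of the 100 highest peaks of the list, 13 were members. Peak width was 330 bp in 292 members, 21 were narrower down to 82 bp, and 1, at wdr-23, was wider at 379 bp.

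The highest member was upstream of cdc-48.1, which encodes the AAA ATPase that pulls ubiquitin-tagged proteins apart, and the next was at wdr-23, the gene of the adaptor that represses SKN-1 itself. The cdc-48.1 peak had a signal value of 492.8 and ranked 5 among all 1778 peaks. Its score was 175 and its rank 3 in the list of replicate 1, and 325 and 6 in the list of replicate 2. The wdr-23 peak had 463.8 and ranked 6, with 134 and rank 5 in replicate 1 and 335 and rank 5 in replicate 2. Both stood near the top of each replicate list and well above the next member, which had 167.2. Scores are given per list, since the lists were not put on a common scale, and ranks are what can be set side by side.

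The third member, at C02D5.4, differed from the first 2 in where its summit lay. Its summit lay 177 bp downstream of the 5′ end, in an intron, and had signal 167.2 and rank 21 in the list, with ranks 24 and 26 in replicates 1 and 2. Its consensus match was centred 5.5 bp from the summit.

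Proteasome genes supplied 4 of the next 5 members. The summit of rpn-11, the deubiquitinase of the proteasome lid, lay 2 bp downstream of the 5′ end in the 5′ UTR, with signal 150.4 and ranks 20 and 41 in replicates 1 and 2. The base ATPase gene rpt-1 had 145.8 at -109 bp, with ranks 47 and 32. The core particle gene pbs-4 had 143.9 at -117 bp, with ranks 38 and 35. The base ATPase gene rpt-6 had 113 at -227 bp, with ranks 42 and 65. All 4 were in the upper 65 lines of both replicate lists. The consensus stood at rpn-11 and rpt-6 and was not found within 50 bp of the summits of rpt-1 and pbs-4.

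The other strong members belonged to several functions. E01A2.1, which resembles the modifier subunit of human glutamate-cysteine ligase, the enzyme of the first step of glutathione synthesis, had signal 137.6 at -174 bp and 2 consensus matches, with ranks 36 and 47. The glutathione S-transferase gene gst-7 had 106.5 at -105 bp, with ranks 60 and 69. The replication licensing gene cdt-1 had 97.75 at -35 bp and no consensus, with ranks 72 and 92. The peaks at eelo-2 (109.7, -234 bp) and E01B7.2 (103.8, -165 bp) also had no consensus, and ranked 59 and 82 (eelo-2) and 74 and 78 (E01B7.2) in replicates 1 and 2. All 12 of the highest members were thus among the upper 92 lines of each replicate list.

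The consensus stood at the summits of a minority of members, and more often than beside them. It was centred within 50 bp of the summit in 57 of 314 members (18.2%, Wilson 95% interval 14.3 to 22.8%), against 23 (7.32%) in 2 flanking windows, centred 300 bp upstream and 300 bp downstream, that together have the length of the summit window. In 52 members it was at the summit alone and in 18 at the flanks alone (McNemar's exact test, two-sided, p = 5.85e-05; 0.000292 after adjustment over 10 motifs by Benjamini and Hochberg's method). This test treats peaks as independent. Over all 1778 peaks 12.4% had the consensus at the summit, and over windows at all autosomal 5′ ends 5.95% had it. The core alone was at 79 member summits (25.2%) and 40 flanks (exact McNemar p = 0.00037 after adjustment), with the 8-base matches included in both counts.

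Member summits held the consensus more often than the summits of the most similar peaks, by a margin that depended on the settings. The share was 18.2% of members against 11.3% of far peaks (33 of 293, 8.13 to 15.4%), a difference of 6.89 percentage points and an odds ratio of 1.74 (Fisher's exact test, two-sided, p = 0.0219; 0.0438 adjusted over 4 comparisons). Against shared promoter peaks, with 10.1% (38 of 378, 7.41 to 13.5%), the difference was 8.1 points and the odds ratio 1.97 (Fisher's exact test, p = 0.00262; 0.0105 adjusted). Autosomal peaks outside promoters had 57 of 445 (12.8%). The difference from far peaks kept its direction in all 11 alternatives tried but passed the adjusted threshold of 0.05 in 2, and that from shared promoter peaks passed in 6 of 11. In both counts 1 passing setting used the midpoint of the peak in place of the summit. That setting nearly repeats the main one, since 292 of the 314 members were 330 bp wide with the summit at the middle. Without replicate 1 neither difference passed (3.47 points, adjusted exact p = 0.286, and 5.91 points, adjusted exact p = 0.0596), and without replicate 2 the one from far peaks did not (5.32 points, adjusted exact p = 0.0804).

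**Figure D2:**
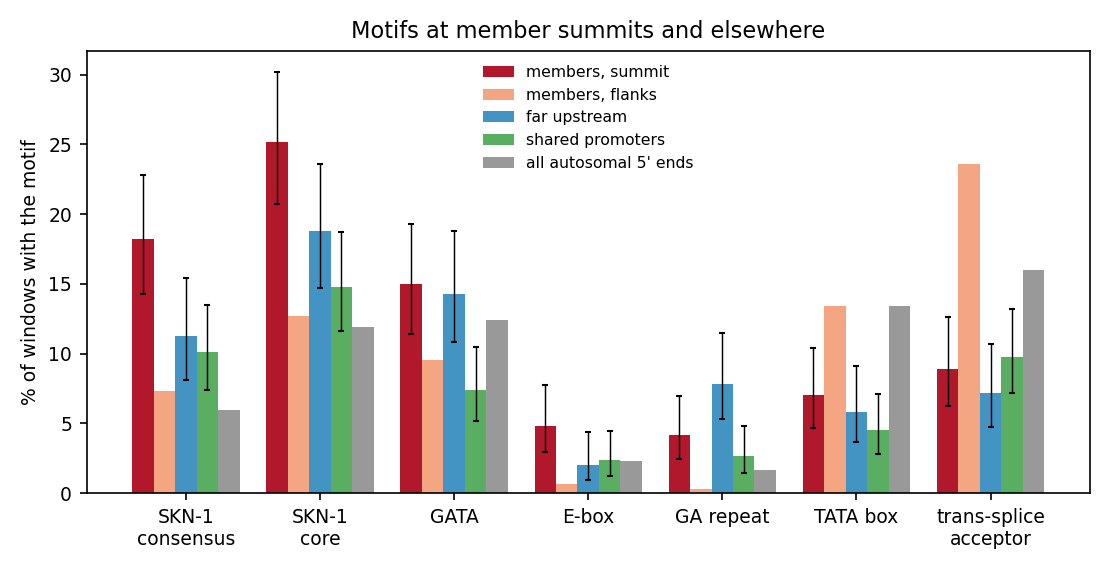
Percent of windows (vertical axis) holding each of 7 motifs (horizontal axis) at member summits, member flanks, far summits, shared promoter summits and windows at all autosomal 5′ ends. Whiskers are Wilson 95% intervals on the summit shares. The SKN-1 consensus was at 18.2% of member summits, while TATAAA and TTTCAG were less common at member summits than in their flanks.

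Other short words also differed between member summits and their flanks. The E-box CACGTG, the site of several basic helix-loop-helix factors, was at 15 summits (4.78%) and 2 flanks (adjusted exact McNemar p = 0.0047), and 2.28% of windows at all autosomal 5′ ends held it. The GA repeat GAGAGAGA was at 13 summits (4.14%) and 1 flank (adjusted exact p = 0.00458), with 1.64% of windows at 5′ ends. The repeat was more common among other peaks, at 7.85% of far summits, 12.1% of summits outside promoters and 6.52% of all 1778, with 2.65% of shared promoter summits. The E-box was at 2.05% of far summits, 2.38% of shared promoter summits, 4.72% outside promoters and 3.88% of all peaks. TATAAA was at 22 summits (7.01%) and 42 flanks (13.4%; adjusted exact p = 0.011), with 13.4% at 5′ ends. TTTCAG, the worm splice acceptor, was at 28 summits (8.92%) and 74 flanks (23.6%; adjusted exact p = 1.67e-05), with 16% at 5′ ends. At the summits of all 1778 peaks these words had shares of 6.19% (TATAAA) and 7.65% (TTTCAG). None of these shares was tested between kinds of peak. Since member summits lay under 250 bp from a 5′ end, the flank centred 300 bp downstream lay past that end. The contrasts of TATAAA and TTTCAG with the flanks can therefore be partly built in by the rule. The upstream flank alone was tried for the SKN-1 consensus and not for these words.

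For the other 4 motifs the test did not pass. The GATA site TGATAA, which intestinal GATA factors bind, was at 47 summits (15%) and 30 flanks (adjusted exact McNemar p = 0.0862). The GC box GGGCGG was at 18 and 8 (0.0944). TGANTCA, the site of AP-1 type bZIP dimers, was at 7 and 4 (0.549). The CRE TGACGTCA was at 2 and 0 (0.549). GATA, TATA and core shares over windows at 5′ ends were 12.4%, 13.4% and 11.9%.

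At members with the consensus, the nearest match lay more often in the direction of the gene than against it. Among the 57 members with it, 52 had 1 match and 5 had 2. The nearest match was centred a median of 23.5 bp from the summit, within 25 bp in 29 members (50.9%) and within 10 bp in 12. Matches were sought within 50 bp only, and these distances are about what an even spread over that window gives. Read on the gene's strand, the match had the same orientation as the gene in 39 and the opposite one in 18, so 68.4% were in the same direction (Wilson 95% interval 55.5 to 79%). This share stands without a background from flanks, other peaks or windows at 5′ ends, and no test was made of it. Relative to the 5′ end the match was centred at a median of -88.5 bp, with quartiles of -160.5 and -16.5 bp. It was at 48 of the 280 upstream summits (17.1%, 13.2 to 22%) and at 9 of the 34 at or downstream of the 5′ end (26.5%, 14.6 to 43.1%). These intervals overlap, which does not decide whether the shares differ, and no test was made of them.

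The consensus was concentrated among the strongest members. When the members were ordered by signal value and cut into 4 groups of 78 or 79, it was at 27 of 79 in the strongest (34.2%, 24.7 to 45.2%; signal 51.8 to 493). The groups that followed had 8 of 78 (10.3%, 5.29 to 19%), 11 of 78 (14.1%, 8.06 to 23.5%) and 11 of 79 (13.9%, 7.96 to 23.2%). The 3 weaker groups did not differ beyond their intervals. Among the 12 strongest members 7 had it, among the 20 strongest 12 and among the 40 strongest 17. The median signal was 47.5 for members with the consensus and 35.7 for those without.

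The pooled list, which continues below the threshold, extended this comparison to lines that the reproducibility filter had not kept. All 1778 thresholded peaks were in it. The share of autosomal summits that fit the rule stayed near 22% over successive sets of 1778 lines, at 22%, 22.6% and 21.8%, then came to 19.5% and 15.9%. The consensus share within those near summits was 18.2% in the first set, then 9.69%, 5.48%, 7.06% and 8.07%. Windows at 5′ ends in general had 5.95%.

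**Figure D3:**
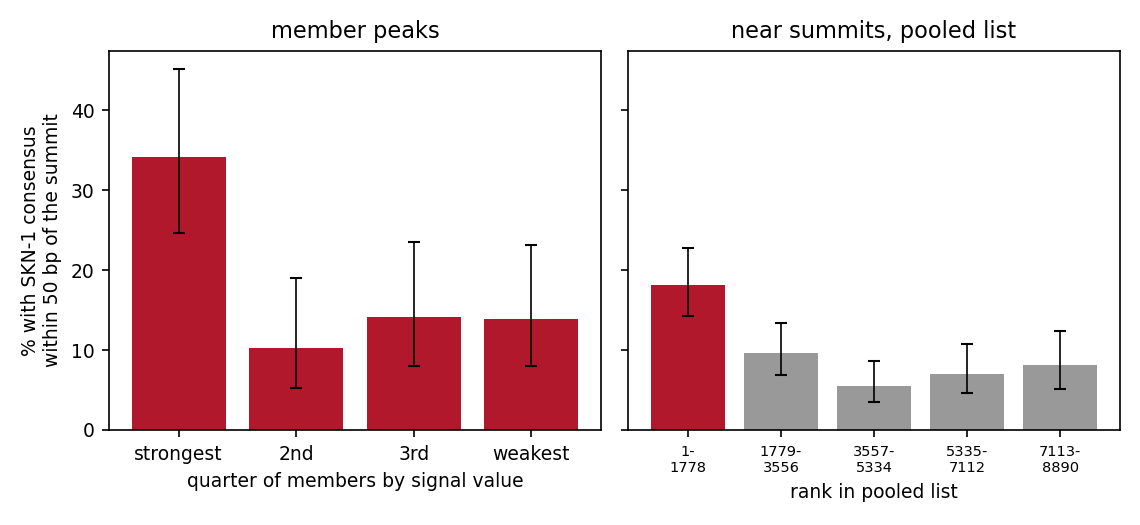
Percent of near single-gene summits with the consensus within 50 bp (vertical axes), by signal group of the 314 members (left) and by rank in the pooled list in sets of 1778 lines (right), with Wilson 95% intervals as whiskers. The strongest group stood at 34.2% and the others between 10.3% and 14.1%, and the sets below the thresholded list stood between 5.48% and 9.69%.

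After the printed sequences had been read, 4 more words were counted, and because of that choice no test was made of them. The consensus followed by CA was at 30 member summits (9.55%) and 2 flanks (0.637%), against 14 far summits (4.78%), 13 shared promoter summits (3.44%) and 0.723% of windows at 5′ ends. These are 30 of the 57 members with the consensus. TGCGTC was at 52 member summits (16.6%) and 4 flanks, and 42 of the 52 had no consensus. Far and shared promoter summits held it in 20.1% and 16.9%, and windows at 5′ ends in 3.39%. Its extension CTGCGTCTC was at 29 member summits (9.24%) and 0 flanks, against 12.6% of far, 6.08% of shared promoter summits and 1.51% of windows at 5′ ends. GAGCGC was at 41 member summits (13.1%) and 4 flanks, against 8.87%, 19% and 2.27%, and 39 of the 41 had no consensus. The line of eelo-2 shows both TGCGTC and GAGCGC.

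The replicates differed in how many members they held, with replicate 2 holding more. A summit within 100 bp was listed for 273 members (86.9%) in replicate 1 and for 311 (99%) in replicate 2. It was listed in both for 271 (86.3%, Wilson 95% interval 82.1 to 89.7%), in replicate 2 alone for 40, in replicate 1 alone for 2 and in neither for 1. Over all 1778 peaks the share in both was 85.1%. The replicate lists hold background lines too, 22350 in replicate 1 and 30000 in replicate 2, and the thresholded list was itself made from them, so these shares are partly built in. Counting only the 1778 highest lines of a replicate, 180 members (57.3%) were found in replicate 1, 257 (81.8%) in replicate 2 and 140 (44.6%) in both.

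Members were not told apart from the compared peaks in that respect. The share in both replicates was 86.3% of members and 81.9% of far peaks (4.39 points; Fisher's exact test, two-sided, p = 0.149 after adjustment). It was 86.3% of members and 90.5% of shared promoter peaks (-4.17 points; adjusted exact p = 0.125). Among the alternatives tried, the second comparison passed only when the replicate summit had to be among the highest 1778 lines (-11.2 points; adjusted exact p = 0.0074), and the first only when it had to lie within 50 bp (13.1 points; adjusted exact p = 0.00396).

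Members that were strong in 1 replicate could be weak in the other. F48A11.4 had a score of 5.34 and rank 5004 in replicate 1 and 63.7 and rank 111 in replicate 2. The cohesin loader gene scc-2 had 6.29 and rank 3532 in replicate 1 and 58.1 and rank 135 in replicate 2. Both were chosen for mention after their values were seen, and neither had the consensus. Rank was lower in number in replicate 2 for 157 of the 271 members found in both and in replicate 1 for 113. The Spearman correlation of the scores was 0.394 over those 271 peaks, which come from the same 2 libraries and were preselected for repeating.

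The highest member without a summit in replicate 1 was nhr-57, rank 295 in the thresholded list and 193 in replicate 2. The highest without one in replicate 2 was crh-1, the gene of the worm CREB factor, rank 437 in the thresholded list and 317 in replicate 1. By signal group, the share found in both replicates was 96.2% (76 of 79) in the strongest members, then 85.9%, 84.6% and 78.5% (62 of 79) in the weakest.

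**Figure D4:**
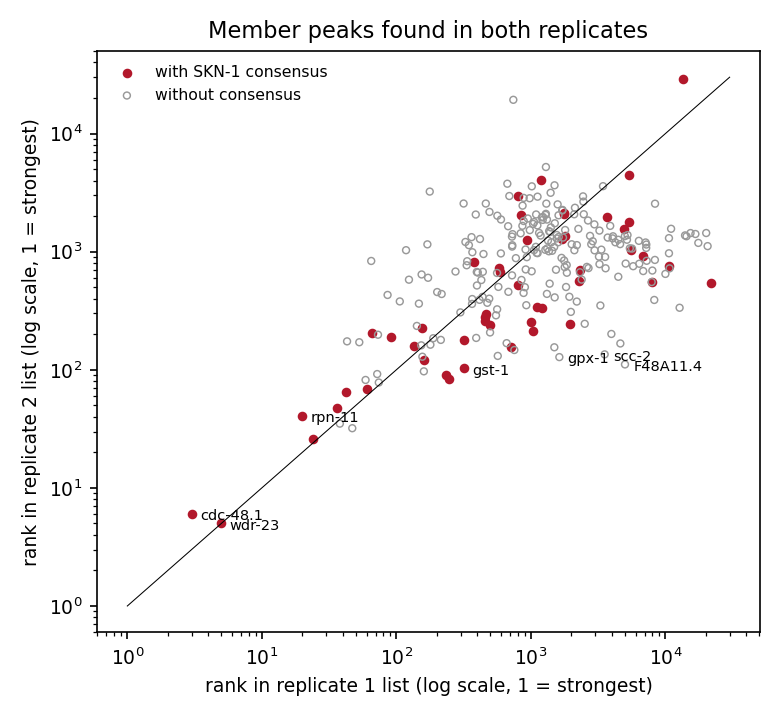
Rank in the replicate 2 list (vertical, log scale) against rank in the replicate 1 list (horizontal, log scale) for the 271 members found in both, filled red with the consensus and open grey without; the line marks equal rank. The highest members cdc-48.1 and wdr-23 lie near the line, and F48A11.4 and scc-2 lie far to its right.

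Gene groups were counted beside the 1.79% of autosomal genes that had a member peak, or the 2.14% of those that could have one. The lists were chosen with earlier results of these data known, so the counts are descriptions with no list test, and 60 of the 309 member genes were in any of the 37 lists. Some genes are in more than 1 list. The lists are not exhaustive, so genes of related function can lie outside them, and each count holds for the listed genes only. Members in no list included acaa-2 (signal 83.58), dnj-9 (65.32), bag-1 (63.78), let-607 (39.12), manf-1 (36.99) and eif-2gamma (33.61), besides C02D5.4. The acaa-2 peak had a consensus match.

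Degradation of proteins was represented at several levels. Of 33 autosomal genes of the proteasome core and regulatory particle, 5 had a member peak (15.2%), and of the 14 that could have one 35.7% did. They were rpn-11, rpt-1, pbs-4, rpt-6 and pbs-3, with signal values of 67.1 to 150.4 and the consensus at 2. A shared promoter peak alone marked 22 further subunit genes, a far peak alone 3, and 3 had none of these. In the group of ubiquitin, CDC-48 and shuttle factors, 4 of 21 genes (19%) had a member peak, and all 4 had the consensus. Besides cdc-48.1 these were the CDC-48 cofactor genes ufd-3 (signal 73.27, -123 bp), ubxn-2 (50.14, -156 bp) and ufd-1 (40.9, -240 bp). Unlike cdc-48.1, these 3 were lower in the replicate 1 list, with ranks of 717, 1204 and 2280 there, and ranks of 156, 332 and 567 in replicate 2.

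Glutathione S-transferases couple glutathione to reactive compounds, and 7 of 46 listed genes (15.2%) had a member peak, 6 of them with the consensus. After gst-7 came gst-1 at -214 bp with signal 86.45 and ranks 319 and 103 in replicates 1 and 2, and gst-16 at -84 bp with 82.54 and ranks 161 and 122. The others were gst-13 (56.69), gst-6 (56.02), gst-5 (42.26) and gst-38 (29.04), and gst-38 alone lacked the consensus. In the group of glutathione synthesis and thiol repair, 3 of 23 genes (13%) had a member peak. They were E01A2.1, the glutathione peroxidase gene gpx-1 (68.94, ranks 1627 and 128) and the peroxiredoxin gene prdx-2 (57.04, ranks 474 and 369), and the consensus stood only at E01A2.1.

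UDP-glucuronosyltransferases, which attach sugar acids to drugs and lipids, had a member peak at 4 of 63 genes (6.35%), with signals of 30.5 to 45.7 and the consensus at 2 of them. These were ugt-5, ugt-39, ugt-26 and ugt-22. The cytochrome P450 genes, which oxidise such compounds, had none among 67, of which 59 could have one. Superoxide dismutases and catalases had none among 7, all of which could have one, and a far peak alone marked 1 of them. Over all autosomal genes that could have a member peak the share was 2.14%, so 0 in lists of this size does not show a lack of peaks.

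Among regulators, 3 of 23 genes in the list of skn-1 and the genes that act on it (13%) had a member peak. These were wdr-23, ogt-1, which encodes the O-GlcNAc transferase (43.48, -242 bp), and daf-15, the worm Raptor gene (37.64, summit 36 bp downstream of the 5′ end in coding sequence). Of 25 genes that the literature names as SKN-1 targets, 5 had a member peak (20%), 4 of them with the consensus, but this list shares gst-7, gst-13, gst-5, gst-38 and wdr-23 with the lists above.

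Genes of bZIP factors, the family that SKN-1 resembles, had a member peak at 4 of 25 listed genes (16%), and none of the 4 had the consensus. The gene xbp-1, a factor of the unfolded protein response, had 66.61 at -19 bp with ranks 392 and 186 in replicates 1 and 2. The immune response factor gene zip-2 had 55.78 at -229 bp with ranks 415 and 391. The summit at crh-1 lay at -6 bp with 51.43, and jun-1, the worm Jun gene, had 2 peaks. Of 20 listed genes of folding and stress in the endoplasmic reticulum, 2 had a member peak (10%), xbp-1 and ire-1, the sensor kinase that splices its message. The ire-1 peak had 35.17 and was matched in replicate 2 alone, at rank 823.

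Nuclear hormone receptors, a family of ligand-dependent factors that is large in worms, had a member peak at 10 of 247 genes (4.05%), and 6 of the 10 had the consensus. The highest was nhr-104 at -42 bp with 88.93 and ranks 234 and 90 in replicates 1 and 2. It was followed by nhr-182 (68.43, 15 bp downstream, ranks 155 and 225) and nhr-228 (59.22, -22 bp, ranks 1028 and 213). The other 7 had signal values of 27.66 to 58.05.

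Genes of protein synthesis had more peaks of the other kinds than member peaks. Of the cytosolic large ribosomal subunit 1 of 49 genes (2.04%) had a member peak, rpl-24.2 (44.01), or 4.76% of the 21 that could have one, while 9 had a far peak alone and 24 a shared promoter peak alone. Of the small subunit it was 2 of 32 (6.25%), ubl-1 (46.29, ranks 8258 and 390) and rps-17 (39.08, ranks 1121 and 972), or 15.4% of the 13 that could have one, while 6 had a far peak alone and 18 a shared one alone. The list of translation factors had 2 of 29, eif-3.C (61.25) and eef-1B.2 (51.75), or 11.1% of those that could have one. The member eif-2gamma (33.61) was not in that list. Mitochondrial ribosomal proteins had 2 of 70, mrpl-28 (28.98) and mrpl-19 (27.97), or 5% of those that could. The respiratory chain had 2 of 66, cox-5B (63.38) and nduf-11 (58.4), or 5.88% of those that could. Over all autosomal genes that could have a member peak the share was 2.14%. None of these had the consensus.

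The remaining lists had members that were few in number, or none, and several held few genes that could have a member peak. Over all autosomal genes that could have one the share was 2.14%. The list of splicing factors had rsp-6 (69.82) and snrp-3 (57.86) among 47 genes, or 8% of the 25 that could. Histones had his-37 (68.08) among 76, or 7.69% of the 13 that could. Autophagy had the TFEB relative hlh-30 (53.31) among 31, or 3.57% of the 28 that could. The list of fatty acid metabolism, with 79 genes, had fat-3 (28.31) and elo-1 (28.06), a desaturase and an elongase of long fatty acids. These were 2.74% of the listed genes that could have a member peak. The list of chaperones had sti-1 (33.35) among 21 genes, or 8.33% of the 12 that could have a member peak, and dnj-9 and bag-1 were not in it. The methionine cycle and transsulfuration had cysl-2 (38.58), with the consensus, among 13, or 8.33% of the 12 that could. Chemoreceptors had srh-2 (39.31) among 1260, or 0.0794%. Of the tissue marker lists, act-5, the actin of intestinal microvilli, was the only gene with a member peak (28.22, ranks 884 and 1817). This was 1 of 8 intestine markers, with 0 of 6 for body muscle, 0 of 9 for neurons, 0 of 5 for hypodermis, 0 of 8 for germ line and 0 of 4 for pharynx. A far peak alone marked 1 intestine marker and 2 neuron markers. Lists of 4 to 9 genes are too short for these counts to tell tissues apart. A total of 14 lists had no member, among them 161 cuticle collagens and 60 homeobox genes.

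**Figure D5:**
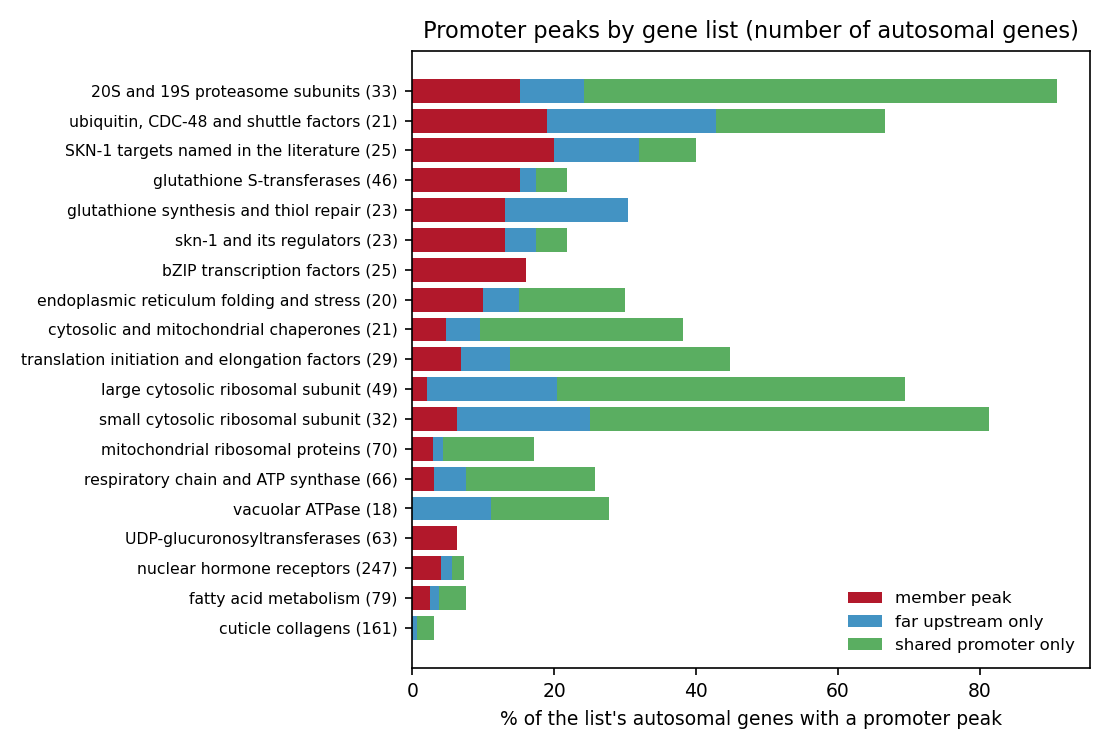
Percent of a list's autosomal genes (horizontal axis) with a member peak in red, else with only a far peak in blue, else with only a shared promoter peak in green, for 19 lists (rows; number of genes in brackets). Member peaks reached 20% of the literature targets and 19% of the ubiquitin and CDC-48 list, while most peaks of ribosomal and proteasome genes were shared promoter peaks.

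Genes with a pair of member peaks were E01G4.3, jun-1, taap-1, tba-2 and wdr-23, and in each the peaks stood at different annotated 5′ ends. The second wdr-23 peak, at -34 bp from the later 5′ end, had a signal of 31.01 against 463.8 for the first, with ranks 847 and 2040 in replicates 1 and 2, and it too had a consensus match. The peaks of taap-1 had 86.27 and 28.84, and the stronger one alone had the consensus. Those of tba-2, an alpha-tubulin gene, had 65.14 and 28.63. At jun-1 the peaks stood 3608 bp apart and the replicates ranked them in opposite order, with 177 and 3226 for the first and 7251 and 837 for the second in replicates 1 and 2. A far peak was also present at 11 member genes, and a shared promoter peak at 6.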

How the data were processed

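The deposited files are narrowPeak lists on ce11, which is WBcel235: 1 list per biological replicate and 1 pooled list, both with background lines, and the thresholded list, which per the text deposited with the samples was derived from the pooled and replicate lists by the irreproducible discovery rate (IDR). No aligner, peak caller or IDR cutoff is named in the sources used here. The ce10 lists, signal tracks and control were not used here. The authors' signal value is a score on their own scale and served for ranks and descriptions inside each list. The q-value, deposited as −log10 of q, was not used in any result. A summit is the deposited start plus the deposited offset plus 1. Read depth is unknown. Peaks of both replicates enter through the thresholded list, and the labels call the replicates biological, without naming a pairing.

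Genes and 5′ ends came from Ensembl release 115, and motifs were searched on both strands of the WBcel235 sequence. Flanks were 2 windows centred 300 bp from the summit. Wilson 95% intervals cover counting error only and treat peaks as independent. Tests were McNemar's exact test over 10 motifs and Fisher's exact test for 4 comparisons, both two-sided, with Benjamini-Hochberg adjustment (Python 3.11.15, pandas 2.3.3, numpy 2.4.6, scipy 1.17.1, matplotlib 3.10.9). Fisher's test, the motif search and the classing of summits were tried on simulated data or random positions, and McNemar's test was not. The rule of membership, the gene lists, the motifs and the tests were chosen with earlier results of these data known. Genes named by rule were those of the 12 strongest members, up to 3 per list by signal value, the 2 nearest either side of the 250 bp limit and those with several member peaks. Further list genes are named to complete short counts, and 4 motifs were added after the printed sequences were read. Sequences were printed for those of the 12 strongest members that are not on chromosome I and for the 6 strongest further list genes not on it. Windows with over 30 untranslated bases were cut to 30 bases around a match or, at E01B7.2, which has none, left out. Alternatives were a stricter list, other distance limits, windows, summit positions, motif widths, flanks and replicate matches, and each replicate alone.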

Additional observations from a re-analysis of the deposited data

How the results depend on the processing

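The share of members with the consensus stayed above that of their flanks, past the threshold, in all 12 alternatives. Of 76 recomputed values, 55 held: a test kept its direction and its side of the threshold, a count stayed within 1.5 times, and the median distance moved by less than its SD over members (97.1 bp; it spanned -166 to -70 bp). All 8 values of the median distance are among the 55, although the rule itself bounds that distance and the allowance is wide. The midpoint of the peak nearly repeats the main setting, so values from it could hardly change. The count of 55 is therefore a description and not a measure of robustness. The member count was 148 in the stronger-signal part of the list and 193 with a limit of 150 bp. Member genes in any list numbered 60, against 38 at 150 bp and 94 at 400 bp. The difference from far peaks in consensus share, 6.89 points, no longer passed with the stronger-signal part of the list (8.48 points; adjusted exact p = 0.103), with a limit of 150 bp (7.13; 0.0538) or 400 bp (3.27; 0.366), with windows of 2000 bp upstream (4.54; 0.265), with motifs within 25 bp (3.43; 0.149) or 100 bp (7.23; 0.0617) or with the 6-base core (6.39; 0.125). Leaving out 1 replicate gave 3.47 to 5.32 points (0.286 and 0.0804). The difference from shared promoter peaks, 8.1 points, no longer passed at 400 bp (5.64; 0.0693), at 2000 bp (6.84; 0.0588), within 25 bp (3.94; 0.149) or within 100 bp (7.59; 0.0573), and leaving out 1 replicate gave 5.91 to 7.08 points, with the lower value, without replicate 1, not passing. For matching in both replicates, the difference from far peaks passed within 50 bp (13.1 points; 0.00396), and that from shared promoter peaks turned to 0.406 points within 200 bp (0.87) and passed at -11.2 points among the highest lines (0.0074). The cause of these changes was not tested. Of the 309 member genes, 247 were found again from replicate 2 alone and 179 from replicate 1 alone, a count added after seeing the data. No paired analysis was possible because the series has 1 group. Depth is unknown, so no limit from depth can be given. Peaks were treated as independent, and neighbouring peaks are not.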
